A study of Solanum lycopersicum with 6 samples.

Results

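APETALA2-type (AP2-type) genes encode transcription factors of the AP2 class, and 5 genes chosen as AP2-type were followed here in dormant axillary buds of tomato. They were chosen by gene ID, as AP2a (Solyc03g044300), AP2b (Solyc02g064960), AP2c (Solyc02g093150), AP2d (Solyc11g072600) and Solyc09g007260, and all 5 were found among the 34075 gene IDs of the deposited tables. The buds came from plants of the cultivar labelled MT, frozen at 25 days after germination, in 3 genotypes with 2 libraries each. These were the wild type (MT), a line titled 156OE (miR156-OE here) and a line titled rSBP15OE with the genotype label rSBP15. The miR156-OE line is known from the study to overexpress miR156, a microRNA. The rSBP15 line is known from the study to express a form of the SBP-box gene SBP15 that miR156 does not target. Its title carries the same OE as that of miR156-OE. About 20 buds from several plants were pooled for each library, so that a library averages over plants and over all cells of the bud, and a change in the make-up of the bud and a change of RNA per cell cannot be told apart. The promoters of the transgenes, and whether a line goes back to 1 transformant, are not given in the sources used here. The transcripts of the transgenes were not checked, since the files pair no ID with a name.

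In the age pathway of flowering plants, miR156 is abundant in young shoots and holds back transcripts of SBP-box transcription factors. In Arabidopsis, SBP-box factors in turn switch on genes for a second microRNA, miR172, which represses AP2-type genes both by cutting their transcripts and by blocking their translation. AP2-type factors delay flowering and help to set the identity of floral organs in Arabidopsis, and in tomato AP2a is known as a negative regulator of fruit ripening and of ethylene production. Protein levels and mature microRNAs were not measured here.

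The names were compared with the gene symbols of RefSeq (assembly SLM_r2.1). RefSeq lists genes named AP2a, AP2b, AP2c and AP2d on chromosomes 3, 2, 2 and 11, the chromosomes that the 4 IDs carry in their own numbers. Solyc09g007260 was chosen under the name AP2e, but its ID belongs to chromosome 9, whereas RefSeq's gene named AP2e lies on chromosome 6. It is therefore called by its ID here and given no name. Whether it encodes a factor of the AP2 class was not checked, and it is counted among the AP2-type genes as chosen. RefSeq holds none of these IDs, so the other 4 names rest on the symbol and the chromosome alone.

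Each of the 2 lines was compared with MT, and each gene has a p-value and a log fold change per comparison. The logarithm's base is not stated, the depth of sequencing is unknown, and values of single libraries are not in the tables, so that levels of the 5 genes in single libraries cannot be shown. The standard error of each log fold change was recovered from its p-value. All 5 genes had log fold changes other than 0 in both tables and are called detected, as were 24920 genes in the miR156-OE table and 25329 in the rSBP15 table. A gene was called changed at a Benjamini-Hochberg adjusted p under 0.05 over all detected genes, by the limma-type test behind the authors' p-values. Both comparisons rest on the same MT libraries, so their values are not independent. Labels do not say that the 2 libraries of a genotype came from separate plantings, and the p-values measure only the spread between these libraries.

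The 5 genes differed among themselves in direction and size. Solyc09g007260 lay below MT in both lines, and in rSBP15 it was the 1 call among the 5 genes in either comparison with MT. That call was kept under 3 of 5 alternative analyses. The largest positive value against MT was that of AP2b in miR156-OE, where it did not pass the threshold, and AP2b lay close to its MT level in rSBP15. AP2c lay close to MT in both lines, AP2a lay below MT in both, and AP2d was below MT in miR156-OE and above it in rSBP15 with errors too wide for a call.

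**Figure D1:**
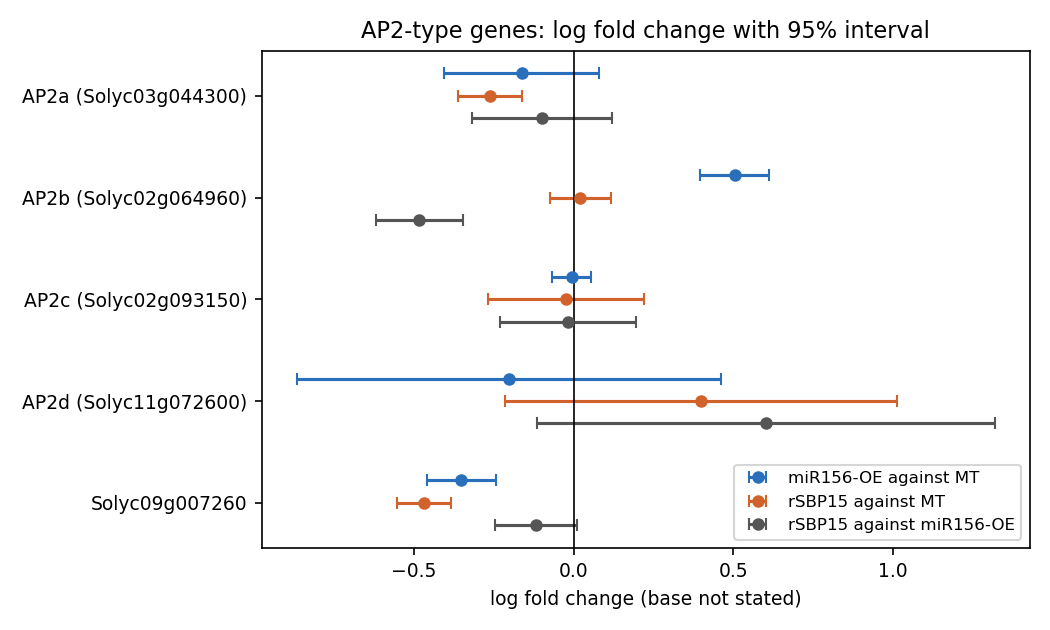
Log fold change (x axis, base not stated) of the 5 AP2-type genes in miR156-OE against MT, rSBP15 against MT and rSBP15 against miR156-OE. Points are log fold changes and bars are 95% intervals from the moderated test, not adjusted for the number of genes, with the largest variance the tables allow for the comparison of the lines. The AP2b interval lies above 0 in miR156-OE and spans 0 in rSBP15, whereas both intervals of Solyc09g007260 against MT lie below 0.

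The first comparison asked which transcripts differ between miR156-OE and wild-type buds. None of the AP2-type genes passed the threshold (0 of 5), against 0.0201% of all detected genes, which was 5 of 24920. At an unadjusted p under 0.05 there were 2 of 5, namely AP2b above and Solyc09g007260 below MT, where 13.2% of all detected genes were at that level. With 5 genes, these counts say little about the group against the background.

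The authors' deposited table put AP2b at a log fold change of 0.50 in miR156-OE, with p = 0.00155. The recovered standard error was 0.0313, the 95% interval ran from 0.40 to 0.61, and the adjusted p was 0.164. This p ranked 235 among the 24920 detected genes, and 96.4% of detected genes had a smaller change. The change was 16.1 times its standard error, which is enough for the miR156-OE and MT libraries to have been fully separated whatever the split of the spread between the genotypes. Groups separated in either direction with the same certainty were found for 37.9% of all detected genes in this comparison.

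The authors' deposited table put Solyc09g007260 at -0.35 in miR156-OE (p = 0.00347). Its standard error of 0.0308 gave an interval from -0.46 to -0.24, and the adjusted p was 0.189. Here too the 2 libraries of miR156-OE both lay below the 2 of MT, since the change was 11.4 times its standard error. Separation in either direction was certain for 37.9% of all detected genes.

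The other three genes had larger errors or smaller changes. For AP2a, the regulator of ripening, the authors' deposited table gave -0.16 in miR156-OE (p = 0.111), with a standard error of 0.0703, an interval from -0.41 to 0.081 and an adjusted p of 0.494. The libraries of AP2a in miR156-OE and MT did not overlap, as was certain for 37.9% of all detected genes. AP2d was at -0.20 in the same deposited table by the authors (p = 0.356), but its standard error of 0.192 was nearly as large as the change, and its interval ran from -0.87 to 0.46 (adjusted p = 0.724). For AP2d the values do not settle whether the libraries of miR156-OE and MT overlapped. AP2c was at -0.0053 in the authors' deposited table (p = 0.774), with a standard error of 0.0178 and an interval from -0.067 to 0.056 (adjusted p = 0.922), and its MT and miR156-OE libraries overlapped. This interval for AP2c is the narrowest of all those computed for the 5 genes.

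The second comparison asked which transcripts differ between rSBP15 and wild-type buds. Solyc09g007260 passed the threshold, which makes 1 of 5 AP2-type genes against 5.58% of all detected genes. This 1 call is that of the ID whose AP2 class was not checked. At an unadjusted p under 0.05 there were 2 of 5, Solyc09g007260 and AP2a, both below MT, where 33.3% of all detected genes were at that level. A share of 2 in 5 is near this background.

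Solyc09g007260 fell by 0.47 in rSBP15. The authors' deposited table gave it -0.47 (p = 0.000999), with a recovered standard error of 0.0245, an interval from -0.55 to -0.38 and an adjusted p of 0.0389 in the limma-type test. The change was 19.1 times its standard error, so both rSBP15 libraries lay below both MT libraries. Groups separated in either direction were certain for 62.3% of all detected genes in this comparison. Its p ranked 648 of 25329, and 87.0% of detected genes had a smaller change. The call was lost with the adjustment over all rows of the table (adjusted p = 0.0523) and without variance moderation (0.0999). Its adjusted p ranged from 0.00678 to 0.0999 over the 5 alternatives.

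For AP2a the authors' deposited table gave -0.26 in rSBP15 (p = 0.00587). Its standard error was 0.0291 and its interval ran from -0.36 to -0.16, with both rSBP15 libraries below both MT libraries. Such a separation, in either direction, was certain for 62.3% of all detected genes. The adjusted p of 0.0613 missed the threshold, and it crossed to 0.0349 when the variance moderation was refitted without undetected genes and to 0.0451 in the fit of 6 libraries at the smallest variance.

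For AP2d the authors' deposited table gave 0.40 in rSBP15 (p = 0.117). Its standard error of 0.179 was larger than that of 90.4% of detected genes, and the interval ran from -0.21 to 1.01 (adjusted p = 0.243). The rSBP15 libraries of AP2d lay above those of MT without overlap. Separation in either direction was certain for 62.3% of all detected genes in this comparison. AP2b, which had the largest positive change in miR156-OE, was at 0.022 here in the authors' deposited table (p = 0.477), with a standard error of 0.0282 and an interval from -0.075 to 0.12 (adjusted p = 0.594). AP2c was at -0.022 in the authors' deposited table (p = 0.759), with a standard error of 0.0710 and an interval from -0.27 to 0.22 (adjusted p = 0.827). For AP2b and AP2c the libraries of rSBP15 and MT overlapped.

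**Figure D2:**
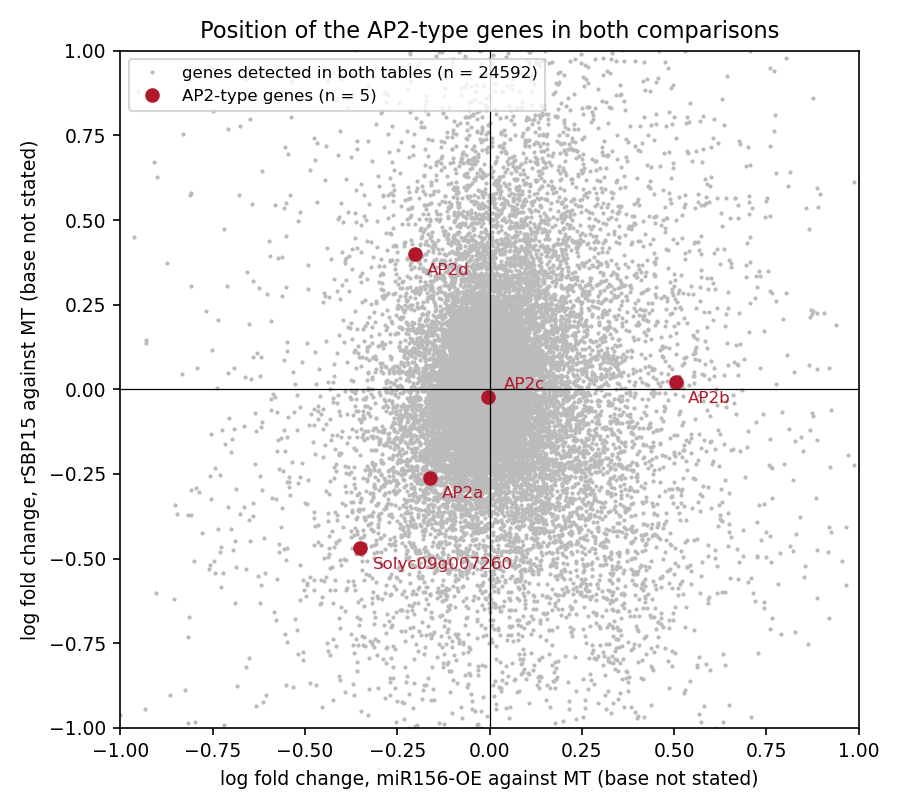
Log fold change in miR156-OE against MT (x axis) and in rSBP15 against MT (y axis), base not stated, for 24592 genes detected in both tables (grey) and the 5 AP2-type genes (red). Both axes end at 1 on either side, which leaves 791 genes outside. AP2b stands to the right at the height of 0, AP2c lies at the centre, and Solyc09g007260 lies farthest to the lower left of the 5. Both axes share the MT libraries.

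The lines were compared with each other through the difference of the 2 log fold changes, which is the change of rSBP15 over miR156-OE because the MT libraries are shared. At the largest variance that the tables allow, none of the AP2-type genes passed the threshold (0 of 5), as was so for 0% of 25657 genes in this limma-type test, while 5569 genes, or 21.7%, had an unadjusted p under 0.05. Of the AP2-type genes 1 of 5, AP2b, was at that level.

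AP2b was lower in rSBP15 than in miR156-OE by a log fold change of -0.48, where the standard error was 0.0421 at the most, with an interval from -0.62 to -0.35, an unadjusted p of 0.00168 and an adjusted p of 0.100 (limma's moderated test). This p of AP2b ranked 429 among 25657 genes, and the smallest adjusted p of any gene in the same moderated test was 0.0991. The libraries of the lines did not overlap, and groups were certain to be separated, in either direction, for 48.4% of all genes in this comparison. The adjusted p was under 0.05 under 3 of the 4 alternatives, at 0.0375 with the mean of the residual variances and at 0.0105 and 0.00477 in the fit of 6 libraries at the largest and smallest variance, and it was 0.334 without moderation. Under these 3 alternatives, in the same order, 1994, 3702 and 5961 of all 25657 genes passed the threshold. The difference between the lines for AP2b thus depended on how its variance was estimated.

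Solyc09g007260 differed between the lines by -0.12, with an interval from -0.25 to 0.012 and an adjusted p of 0.256, which crossed to 0.0459 in the fit of 6 libraries at the smallest variance. AP2d had the widest interval, from -0.12 to 1.32 around a difference of 0.60 (adjusted p = 0.279). For Solyc09g007260 and AP2d too the libraries of the lines did not overlap, as was certain for 48.4% of all genes. AP2a differed by -0.098, with an interval from -0.32 to 0.12 (adjusted p = 0.517), and AP2c by -0.017, with an interval from -0.23 to 0.19 (adjusted p = 0.975). These intervals bound the differences, and a p above the threshold does not show that the lines were alike.

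**Figure D3:**
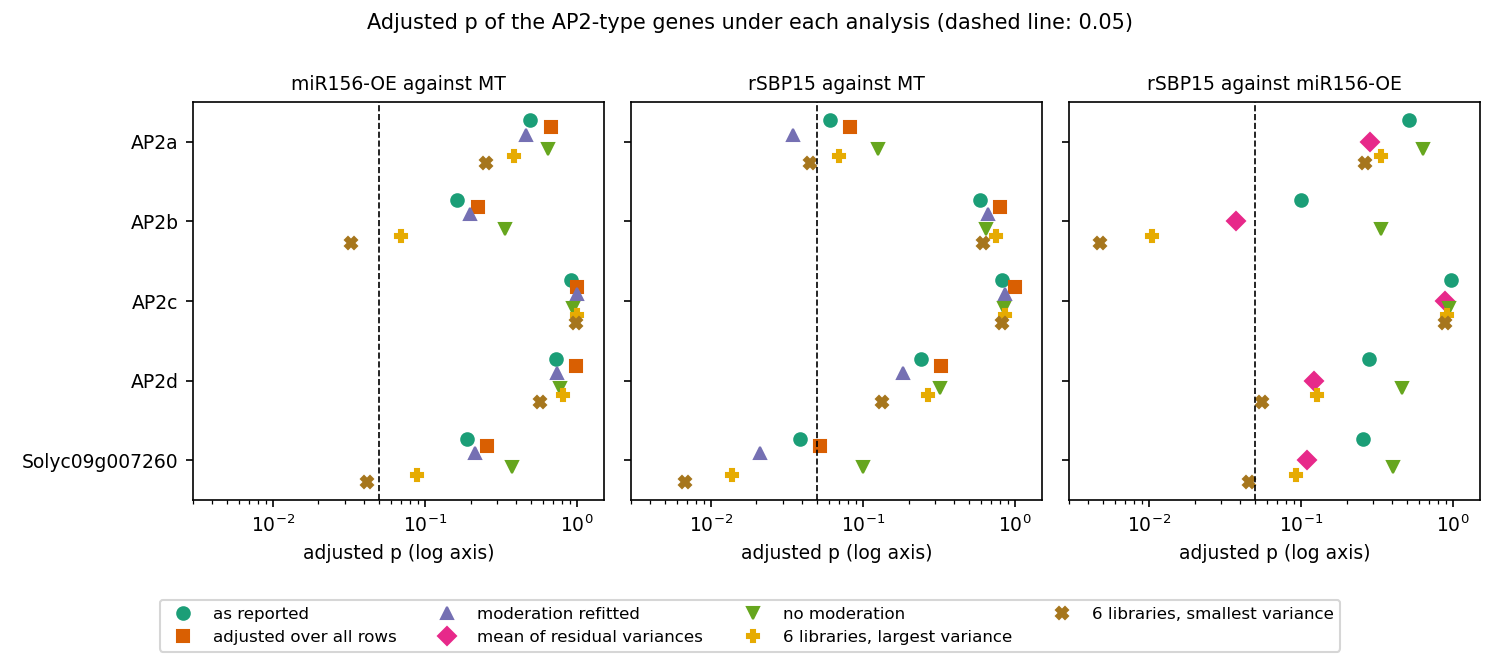
Adjusted p (x axis, log scale) of the 5 AP2-type genes in the 3 comparisons, as reported and under each alternative analysis, with a dashed line at 0.05. Points left of the line pass the threshold. Points lie on both sides for AP2a in rSBP15, for AP2b in miR156-OE and between the lines, and for Solyc09g007260 in all 3 comparisons. AP2c and AP2d have none to the left.

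Although no value per library is given, the tables limit how far apart the 2 libraries of each genotype lay. The squared gaps of MT and of a line add up to 4 times the squared standard error, so that a difference between the standard errors of the tables belongs to the lines. For AP2a the gap between the miR156-OE libraries was between 0.128 and 0.141 on the log scale of the tables, while the gaps of MT and rSBP15 were each at most 0.0582. The larger error of AP2a in miR156-OE therefore came from that line's own libraries.

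AP2c showed the reverse. The rSBP15 libraries of AP2c lay 0.138 to 0.142 apart, against at most 0.0356 in MT and in miR156-OE. AP2d was the most variable of the 5 genes, with a gap of 0.142 to 0.384 in miR156-OE and of up to 0.357 in MT and in rSBP15. For AP2b the gap in miR156-OE was 0.0272 to 0.0626 and that of each other genotype at most 0.0564, and for Solyc09g007260 the limits were 0.0375 to 0.0617 and 0.0490. The gap was wider in miR156-OE than in rSBP15 for 4 of the 5 genes, and for 64.9% of the 24592 genes detected in both tables.

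**Figure D4:**
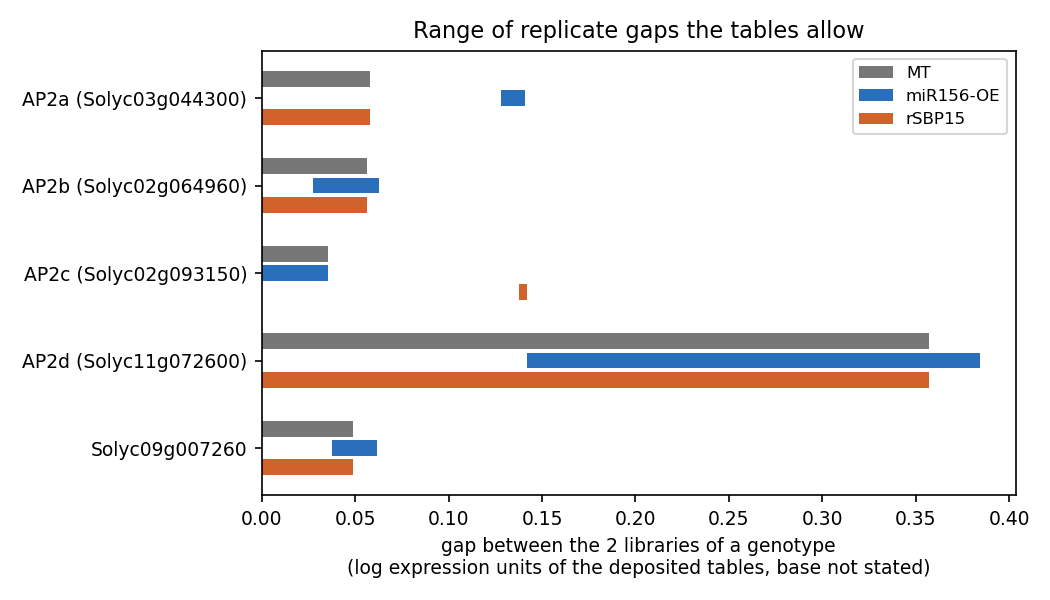
Range that the tables allow for the gap between the 2 libraries of each genotype (x axis, log scale of the deposited tables, base not stated), for the 5 AP2-type genes. Bars run from the smallest to the largest possible gap. The bar of AP2a in miR156-OE and that of AP2c in rSBP15 stand clear of the other two genotypes.

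Other genes of the pathway were taken as 2 lists of IDs, 17 of the SBP-box family, upstream of the AP2-type genes, and 10 of the flowering and floral MADS-box and florigen families. Their membership comes from general knowledge of tomato IDs and not from the files. Whether SBP15 itself is among the 17 SBP-box IDs was not checked. The transcript of the rSBP15 transgene may therefore be among the SBP-box counts in that line. In miR156-OE, 17 of 17 SBP-box IDs were below MT in the authors' deposited table, 13 of them at an unadjusted p under 0.05, and 1 passed the adjusted threshold. Of all 24920 detected genes 12635 were below MT, 13.2% had an unadjusted p under 0.05 in either direction and 0.0201% were called. Their median log fold change was -0.36, against -0.16 for the 5 AP2-type genes and -0.00059 for all detected genes. The ID called was Solyc10g009080, which fell (-1.71 in the authors' deposited table, adjusted p = 0.0453). This call was kept under 1 of 5 alternatives, the fit of 6 libraries at the smallest variance (0.0327), and its adjusted p was between 0.0568 and 0.132 under the other four. Of the 10 MADS-box and florigen IDs, 10 were below MT and 5 had an unadjusted p under 0.05, with a median of -0.58 and 0 calls, beside the same shares of all detected genes. The lowest p among them was that of Solyc02g089210 (-0.58 in the authors' deposited table, adjusted p = 0.144).

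In rSBP15, 12531 of all 25329 detected genes were below MT and 12798 above. Of the 17 SBP-box IDs 12 were below and 5 above MT, with a median of -0.15. At an unadjusted p under 0.05 there were 7 below and 2 above, against 33.3% of all detected genes in either direction, and 4 passed the threshold, all below, against 5.58% of all detected genes (744 below and 670 above MT). The lowest p was that of Solyc10g018780 (-0.81 in the authors' deposited table, adjusted p = 0.0297). Of the MADS-box and florigen IDs 6 were above and 4 below MT, with a median of 0.055. At an unadjusted p under 0.05 there were 4 above and 1 below, and 1 of 10 passed the threshold, beside the same 5.58% of all detected genes. It was Solyc02g065730, which rose (1.00 in the authors' deposited table, adjusted p = 0.0259). The calls of Solyc10g018780 and Solyc02g065730 were lost without moderation (0.0902 and 0.0815) and kept under the other 4 alternatives. The median of the AP2-type genes was -0.022 and that of all detected genes 0.00053. Between the lines, 13305 of all 25657 genes were higher in rSBP15 than in miR156-OE and 11950 were lower, with a median of 0.0016. Of the 17 SBP-box IDs 15 were higher and 2 were lower, with a median of 0.26. Of these, 9 above and 1 below had an unadjusted p under 0.05, against 21.7% of all genes in either direction. All of the MADS-box and florigen IDs (10 of 10) were higher in rSBP15 than in miR156-OE, 6 of them at that level, with a median of 0.40. Neither list had a call (0 of 17 and 0 of 10), as held for all genes at the largest variance. The lowest p of the SBP-box IDs was that of Solyc10g018780, one of the 2 that were lower, at -0.45, and that of the other list was Solyc02g065730, at 1.13. The adjusted p of both was 0.0991, and it was under 0.05 under 3 of the 4 alternatives, with 0.334 unmoderated as the exception.

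**Figure D5:**
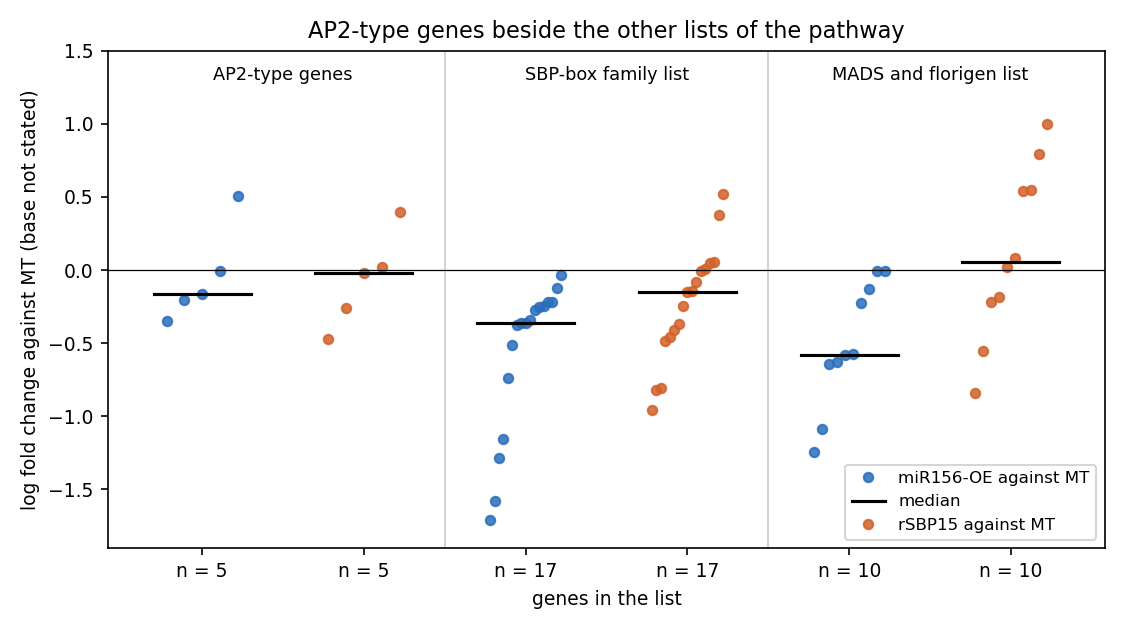
Log fold change against MT (y axis, base not stated) of the 5 AP2-type genes, the 17 SBP-box family IDs and the 10 MADS-box and florigen family IDs, in miR156-OE (blue) and rSBP15 (orange). Each point is a gene, sorted by value within its column, and horizontal lines are medians. Points of the AP2-type genes lie on both sides of 0 in both lines, while those of the other two lists in miR156-OE lie below 0.

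The pattern of Solyc09g007260, the gene farthest from 0 over both comparisons, was set beside 24591 other genes detected in both tables, by the straight-line distance between pairs of log fold changes. The nearest was Solyc01g090730, 0.0131 away, for which the authors' deposited tables gave -0.36 in miR156-OE and -0.46 in rSBP15 (adjusted p = 0.227 and 0.0376, of which the second was 0.0506 over all rows and 0.0992 unmoderated). It is also one of the SBP-box IDs listed above. Solyc02g087960 was next, 0.0172 away, for which the authors' deposited tables gave -0.34 and -0.46 (adjusted p = 0.276 and 0.0687). A likeness over 2 comparisons that share MT libraries is a description only.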

How the data were processed

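RNA was sequenced from pooled dormant axillary buds, 2 libraries for each of 3 genotypes, with poly(A) selection and stranded TruSeq libraries per the labels' protocols. HISAT2 and StringTie are named in the submitters' processing notes, without role or version. Per the file headers, the values the authors deposited are, for each gene and line, a p-value beside a log fold change. The log base, statistical test, genome build and annotation are not given in the sources used here.

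Undetected genes are those at a log fold change of exactly 0. For a gene seen in a single library of 4, the residual variance equals the squared log fold change, and 1224 and 1262 genes lay within 1e-06 in p of the curve this gives for limma's moderated test, with 0.347 and 0.360 prior degrees of freedom. These constants gave each gene's residual variance, and limma 3.58.1 (R 4.3.3) returned the same constants from them. The 2 tables were taken to share their MT values because 402 genes had the same log fold change in both, 402 of them below 0. The difference of the lines used the sum of both variances, the largest value possible. The fit of 6 libraries was bounded by the largest and smallest variance the tables allow. The recovery was tested on simulated data. Groups are certain not to overlap where the change exceeds the standard error times the square root of 2. In the comparisons with MT, groups are certain to overlap where the change is below the standard error. Between the lines the standard error is an upper limit, so only the first rule holds there.

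The genes, lists, tests and alternatives were chosen with earlier results of these data known. All 5 AP2-type genes are named, from each list the ID with the lowest p, and the 2 genes nearest in pattern to the AP2-type gene farthest from 0.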

Additional observations from a re-analysis of the deposited data

How the results depend on the processing

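Among the AP2-type genes, calls at an adjusted p under 0.05 numbered 0 in miR156-OE, and 2 when 6 libraries were fitted at the smallest variance and 2 at an unadjusted p of 0.05, with 0 under the other alternatives. In rSBP15, where 1 was called, there were 0 over all rows, 0 unmoderated and 0 at a threshold of 0.01. There were 2 with the moderation refitted, 2 with 6 libraries at the smallest variance and 2 at an unadjusted p of 0.05, and 1 with 6 libraries at the largest variance. Between the lines, where 0 were called, there was 1 with the mean of the residual variances, 1 with 6 libraries at the largest variance, 1 at an unadjusted p of 0.05 and 2 with 6 libraries at the smallest variance. Unmoderated there were 0. The 2 genes in miR156-OE were AP2b and Solyc09g007260 (adjusted p of 0.0327 and 0.0416 with 6 libraries at the smallest variance). Over all genes, 5 were called in miR156-OE, and over all rows, refitted, unmoderated, and with 6 libraries at the largest and smallest variance there were 0, 0, 2, 0 and 224. In rSBP15 the 1414 calls became 544, 3711, 43, 2865 and 5040. Between the lines the 0 calls became 1994 with the mean variance, 3702 and 5961 with 6 libraries, and 0 unmoderated. Each setting changes the test alone, so the log fold changes stay as deposited. No paired analysis was possible because single libraries have no values in the files. Leaving out replicates, other normalizations, count models and filters were not run for the same reason.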
